A study of Mus musculus with 5 samples.

Results

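The SPARC family comprises secreted, calcium-binding matricellular glycoproteins, which sit in the extracellular matrix without building its scaffold and change how cells and collagen interact. The transcripts described are *Sparc* (osteonectin), *Sparcl1* (hevin), *Smoc1* and *Smoc2* (modular calcium-binding proteins), *Spock2* (testican-2, a proteoglycan) and *Fstl1* (follistatin-like 1), 6 of the 20365 gene names in the SLAMseq tables. In the heart, SPARC is known as a collagen chaperone that supports collagen deposition after injury, SMOC proteins as antagonists of bone morphogenetic protein (BMP) signaling, and FSTL1 as a factor released by cardiac cells that binds BMP ligands. The members were chosen by name with earlier results of these data known, and each was represented by the 3′ untranslated region (UTR) interval with the highest mean deposited CPM in the labeled libraries. The height of their levels among all genes, and the order of the members, are therefore a description with no test, and only labeled and unlabeled libraries were compared by tests.

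Cardiac fibroblasts (CF) were isolated from hearts of adult healthy male C57Bl/6J wildtype mice by collagenase perfusion of the heart, grown to confluency and incubated for 12 h with 0.1 mM of the uridine analog 4-thiouridine (S4U, 3 labeled libraries) or without it (2 unlabeled libraries). RNA of both groups was alkylated, so that sequencing reports C where S4U had been incorporated. The T>C conversion rate, the fraction of covered T positions read as C, rises with the share of a transcript that was made during labeling, and the unlabeled libraries give the rate read without S4U. Cultures grown to confluency need not keep the state of CF in the heart. The paper counts fewer CF preparations for SLAMseq than there are libraries, and says that control cells were kept alongside the labeled ones. If that count covers the unlabeled libraries too, some libraries share a preparation, but which ones is not stated. The p-values therefore measure the spread between these libraries.

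With 1 interval used per gene, the libraries held 506045 to 1843033 counted reads. The deposited CPM divides by a number of reads that exceeded these counts by a factor of 7.58 to 28.9, so levels are given as CPM relative to counted reads unless called deposited. The 3′ end libraries count about 1 fragment per transcript, and levels per kilobase of interval are added where genes are compared. All 8 fibroblast markers (*Pdgfra*, *Tcf21*, *Dcn*, *Lum*, *Ddr2*, *Col1a1*, *Col3a1*, *Gsn*) were read in every library, and their summed level ran from 27872 to 29636 CPM in the labeled and from 24817 to 25513 CPM in the unlabeled libraries. The summed level over all libraries was 145 to 265 CPM for 8 endothelial markers (*Vwf* at 0 in all but unlabeled replicate 2), 24.1 to 97.4 CPM for 6 mural markers, 59.0 to 111 CPM for 7 macrophage markers, 0.634 to 8.03 CPM for 6 cardiomyocyte markers (*Ryr2* and *Myl2* at 0), 1.00 to 5.93 CPM for 5 epicardial markers (*Msln* and *Krt19* at 0) and 1.98 to 6.69 CPM for 3 Schwann cell markers (*Sox10* at 0).

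All coordinates refer to GRCm39 (mm39). The interval of *Sparc* (ENSMUSG00000018593.15, minus strand) spans chr11:55284985-55286410, covers the 3′ UTR in the last exon and runs 332 bases past the annotated end of the gene. *Fstl1* (ENSMUSG00000022816.13, plus strand) was counted on chr16:37654289-37656878, which covers the 3′ UTR in the last exon and ends 2 bases past the annotation. *Smoc1* (ENSMUSG00000021136.15, plus strand) was counted on chr12:81231340-81233188, within an exon up to the annotated end. *Smoc2* (ENSMUSG00000023886.12, plus strand) was counted on the longer of its 2 nested intervals, chr17:14623775-14625052, and *Spock2* (ENSMUSG00000058297.18, plus strand) on the longer of its 2 nested intervals, chr10:59967304-59971020. The *Smoc2* interval stops 22 bases and that of *Spock2* 337 bases short of the annotated end of the gene, so reads beyond were not counted. The interval of *Sparcl1* (ENSMUSG00000029309.9, minus strand), chr5:104226974-104227414, stops 686 bases short of the annotated end of the gene, so reads of transcripts that end farther on were not counted there. On the opposite strand, the annotation places *Gm73109* across the interval of *Sparcl1* and *4930474M22Rik* across that of *Smoc2*.

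Reads of 3′ end libraries start near the poly(A) site, and the sequence before that site sets how many T positions a read can report. The last AATAAA of the interval is printed for *Sparc*, *Smoc1* and *Sparcl1*, 5′ to 3′ on the transcript strand of GRCm39, with the signal in capitals, since 3′ end reads lie just before such sites.
Sparc: caagtctttcaaAATAAAaagtaacaactt
Smoc1: tgttttataaaaAATAAAaatgggtaaact
Sparcl1: tcttgatgtcctAATAAAaaatctataaaa

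These 30-base windows lie at chr11:55285335-55285364 for *Sparc*, chr12:81233153-81233182 for *Smoc1* and chr5:104226981-104227010 for *Sparcl1*. The signal of *Sparc* is the only AATAAA in its interval and ends 30 bases before the annotated end of the gene. *Smoc2* has none, whereas 85.8% of 796 read intervals of like length (within 10%) hold AATAAA. The 200 bases before the signal hold 49 T in *Sparc* and 52 in *Smoc1*, against 69 in *Sparcl1*. The AU-rich pentamer ATTTA, a letter pattern found in many unstable transcripts, occurs 2 times in *Sparc* and *Smoc2*, 3 times in *Fstl1*, 1 time in *Smoc1* and not in the interval of *Sparcl1*. It was searched on the transcript strand, and read intervals of like length hold it in 83.2% of cases for *Sparc*, 80.3% for *Smoc2*, 94.95% for *Fstl1*, 90.5% for *Smoc1* and 49.1% for *Sparcl1*.

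*Sparc*, a collagen-binding glycoprotein, was the most abundant transcript of the whole data set by mean level in the labeled libraries, ahead of *Col1a1* (13036 ± 269.8 CPM, SD, n = 3) by less than its own SD. Labeled replicates 1, 2 and 3 held 16015, 18930 and 8595 of its reads, and unlabeled replicates 1 and 2 held 14035 and 14247. These are levels of 10161, 15841 and 16985 CPM in the labeled and 7615 and 14302 CPM in the unlabeled libraries, with a labeled mean of 14329 ± 3654 CPM (SD, n = 3). It ranked 1 in labeled replicates 2 and 3 and in unlabeled replicate 2, rank 2 in labeled replicate 1 and rank 3 in unlabeled replicate 1. By mean deposited CPM, 1091 ± 435 (SD, n = 3), it ranked 2. The paper names *Col1a1* as the highest in the transcriptome among the genes of secreted proteins that it compared. For *Sparc* the groups overlapped, and the lowest library of each group was its replicate 1.

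*Fstl1*, a secreted glycoprotein with a follistatin-like and a SPARC-type calcium-binding domain, had the next highest level among the members and rank 16 of all genes. Its level was 1932, 3916 and 4444 CPM in the labeled and 1658 and 3062 CPM in the unlabeled libraries, with a labeled mean of 3431 ± 1325 CPM (SD, n = 3). As for *Sparc*, replicate 1 was lowest in each group. The level of *Sparc* was 3.82 to 5.26 times that of *Fstl1* in the labeled libraries and 4.59 and 4.67 times in the unlabeled ones. The summed levels of the endothelial, macrophage, mural and cardiomyocyte marker lists were also lowest in replicate 1 of each group. So was that of 12 collagens and collagen-binding partners, at 41985, 43333 and 46634 CPM with and 32794 and 37184 CPM without S4U. Of these genes *Col1a2*, *Col4a1*, *Col4a2*, *Col5a1* and *Ddr1* were lowest in replicate 1 of each group, and the others were not. *Col5a2* was highest in replicate 1 of each group, at 2608 CPM with and 2150 CPM without S4U. The 8 endothelial markers summed to 145, 256 and 156 CPM in labeled replicates 1 to 3 and to 179.6 and 265 CPM in the unlabeled libraries, the 7 macrophage markers to 59.0, 101 and 79.0 CPM and to 78.1 and 111 CPM, and the 6 mural markers to 24.1, 50.2 and 75.1 CPM and to 33.6 and 97.4 CPM. Most of the difference between libraries in the mural list was *Notch3*, at 11.4, 42.7 and 59.3 CPM with and 23.3 and 82.3 CPM without S4U, and *Abcc9* stood at 3.26 and 11.04 CPM without S4U, whereas the pericyte marker *Rgs5* stood at 3.17, 0.837 and 7.90 CPM and at 3.798 and 1.00 CPM. The 6 cardiomyocyte markers summed to 0.634, 7.53 and 5.93 CPM with and 2.17 and 8.03 CPM without S4U. Of the endothelial, macrophage, mural and cardiomyocyte lists 7, 6, 4 and 1 markers were read in every library, and their part in the levels of *Sparc* and *Fstl1* was not tested. In bulk libraries, fewer cells of a type and less RNA per cell cannot be told apart.

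*Smoc2*, a matricellular protein made by fibroblasts, had levels of 359.8, 236 and 322 CPM in the labeled and 402 and 379 CPM in the unlabeled libraries, with a labeled mean of 306 ± 63.4 CPM (SD, n = 3). All labeled libraries lay below both unlabeled ones, as did those of 13.1% of the 9807 genes tested for reads, whereas no member had every labeled library above both unlabeled ones, as 8.2% of genes did. *Sparcl1*, an anti-adhesive paralog of *Sparc*, had 158, 230.1 and 156 CPM in the labeled and 189 and 321 CPM in the unlabeled libraries, with a labeled mean of 181 ± 42.2 CPM (SD, n = 3). Its groups overlapped, and replicate 2 was highest in each. *Sparcl1* is also known from endothelial cells, which the CF isolation protocol of the study, written for operated hearts, depletes by CD31, as it does immune cells by CD45. The endothelial and the macrophage sums given above were likewise highest in replicate 2 of each group, so this order was not particular to endothelial markers. Of the 7 endothelial markers read in every library, 5 (*Pecam1*, *Kdr*, *Tek*, *Tie1* and *Egfl7*) were highest in replicate 2 of each group, as *Sparcl1* was, with *Pecam1* at 5.71, 27.6 and 17.8 CPM with and 10.9 and 41.2 CPM without S4U. *Cdh5* and *Emcn* were not, with *Emcn* at 19.0, 18.4 and 11.9 CPM with and 25.5 and 24.1 CPM without S4U. The part of these markers in the level of *Sparcl1* was not tested.

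*Smoc1*, whose protein is known as an antagonist of BMP signaling, had 109, 34 and 14 reads in the labeled and 115 and 25 in the unlabeled libraries. Its level was 69.2, 28.5 and 27.7 CPM against 62.4 and 25.1 CPM, with a labeled mean of 41.8 ± 23.7 CPM (SD, n = 3). Replicate 1 of each group held the highest level, the reverse of *Sparc* and *Fstl1*. *Spock2*, a testican best known from brain, had 3 reads in labeled replicate 1, 1 read in unlabeled replicate 1 and 0 in the other 3 libraries, where a count of 0 allows up to 2.51, 5.93 and 3.01 CPM in labeled replicates 2 and 3 and unlabeled replicate 2. No rate or fold change is given for it.

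The order *Sparc*, *Fstl1*, *Smoc2*, *Sparcl1*, *Smoc1*, *Spock2* held in each of the 5 libraries. *Smoc2* and *Sparcl1* were neighbours that did not differ in every library beyond the spread, with a ratio of their levels of 2.28, 1.03 and 2.06 in labeled replicates 1, 2 and 3. Per kilobase of interval their order turned, with a mean labeled level of 411 CPM per kilobase for the short interval of *Sparcl1* and 239 for *Smoc2*. On that scale *Sparc* had 10049, *Fstl1* 1325 and *Smoc1* 22.6 CPM per kilobase. Together, the members took 1.27% to 2.19% of the counted reads in the labeled and 0.993% and 1.81% in the unlabeled libraries.

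**Figure D1:**
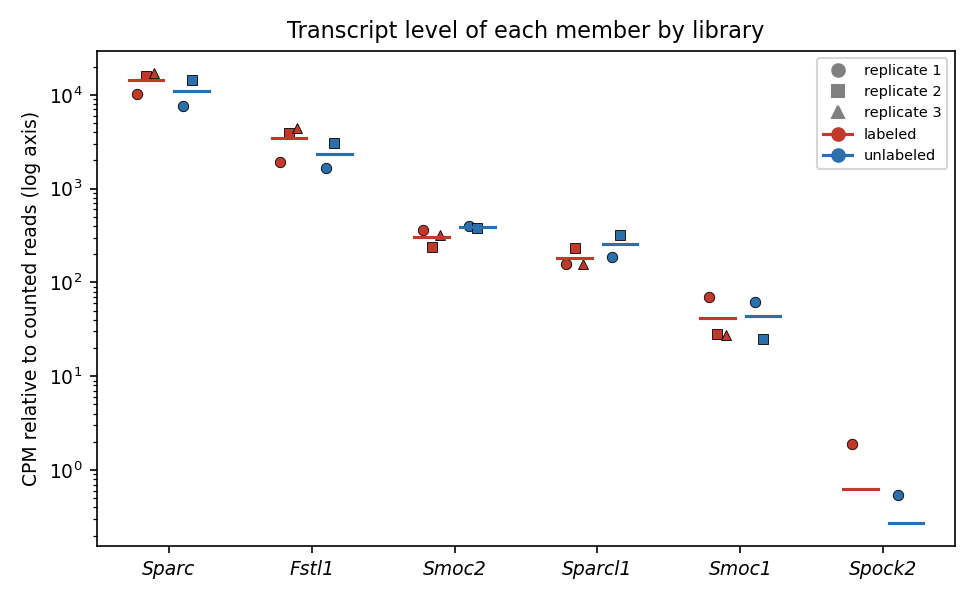
Transcript level of each member in CPM relative to counted reads on a log axis, with 1 symbol per library (shape: replicate number; colour: labeled or unlabeled) and a line at each group mean; libraries with 0 reads of Spock2 are not drawn. Sparc lies between 7615 and 16985 CPM and Smoc1 between 25.1 and 69.2 CPM.

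The T>C conversion rate rises with the share of each transcript that was made during the 12 h of labeling. It was tested on every interval with a covered T in all 5 libraries by a beta-binomial likelihood-ratio test on conversions and covered T positions. The exact permutation test of 3 libraries against 2 cannot go below p = 0.1, so the p-values given rest on the counts and the modeled spread. Of the 5 members that could be tested, 5 had a higher rate in the labeled libraries at p below 0.05, where 94.6% of all 19240 intervals did. In these 5, every labeled library lay above both unlabeled ones, as for 90.4% of 11179 genes. The members therefore followed the data set in direction, and they differed among themselves in size.

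The rate of *Fstl1* was 0.0302, 0.0302 and 0.0297 in labeled replicates 1, 2 and 3, from 61098 to 122197 covered T positions per library. Its mean of 0.0300 ± 0.000324 (SD, n = 3) stood against 0.00108 and 0.000465 in the unlabeled libraries. The beta-binomial test gave p = 6.48e-08. The labeled libraries were nearly equal although the level of *Fstl1* varied between them. The mean was higher than 15.9% of the 2107 genes that reached 1000 covered T positions in all 5 libraries (deeply covered genes), whose median was 0.0388.

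For *Smoc1* the labeled rate was 0.0385, 0.0251 and 0.0231, from 1790, 676 and 260 covered T positions, with a mean of 0.0289 ± 0.00840 (SD, n = 3). In the unlabeled libraries 0 conversions were seen on 2083 and 432 covered T positions, which allows a rate of up to 0.00119 over both (beta-binomial test, p = 8.93e-05). Only 6 conversions stood behind the rate of labeled replicate 3. The difference between *Smoc1* and *Fstl1* was smaller than the SD of *Smoc1*.

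*Smoc2* was labeled at 0.00972, 0.0118 and 0.00866, with a mean of 0.0101 ± 0.00160 (SD, n = 3), and had rates of 0.00102 and 0.000777 without S4U. The beta-binomial test gave p = 5.79e-06 for *Smoc2*. *Sparcl1* was labeled at 0.00666, 0.00725 and 0.00578, with a mean of 0.00656 ± 0.000742 (SD, n = 3), and had 1 conversion in each unlabeled library, on 7252 and 7402 covered T positions. For *Sparcl1* the beta-binomial test gave p = 9.61e-06. The mean of *Smoc2* was higher than 1.80% and that of *Sparcl1* higher than 0.427% of the 2107 deeply covered genes. *Smoc2* had the higher rate of these 2 genes in 3 of 3 labeled libraries, and their difference exceeded the SD of each. The rate of *Fstl1* was 4.17 to 5.14 times that of *Sparcl1* in the labeled libraries.

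*Sparc* had a rate of 0.0255, 0.0199 and 0.0195 in the labeled libraries, with a mean of 0.0216 ± 0.00334 (SD, n = 3) from 135014 to 308671 covered T positions. Unlike the other members, it was also read with many conversions in the libraries without S4U, at 0.0108 and 0.00661. The beta-binomial test of labeled against unlabeled gave p = 0.00116, and limma gave a log2 odds difference of 1.36 (adjusted p = 0.0179). With the replicate number as a block, limma gave a difference of 1.43 and no longer called *Sparc* (adjusted p = 0.0736), and 4 of the 5 members and 18435 of the 19240 intervals were called higher. Labeled replicate 3 has no unlabeled library of its number, so that fit took the difference from replicates 1 and 2 only. The labeled rate exceeded the unlabeled one of the same number by 0.0147 in replicate 1 and 0.0132 in replicate 2. The labeled mean was 2.49 times the unlabeled one for *Sparc* and 11.2 times for *Smoc2*. No such ratio is given for *Fstl1*, whose unlabeled rates differed by more than 2 times between the libraries, or for *Sparcl1*, with 1 conversion in each of them. The mean of *Sparc* was below that of *Smoc1*, by less than the SD of *Smoc1*, and above that of *Smoc2* by more than either SD.

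**Figure D2:**
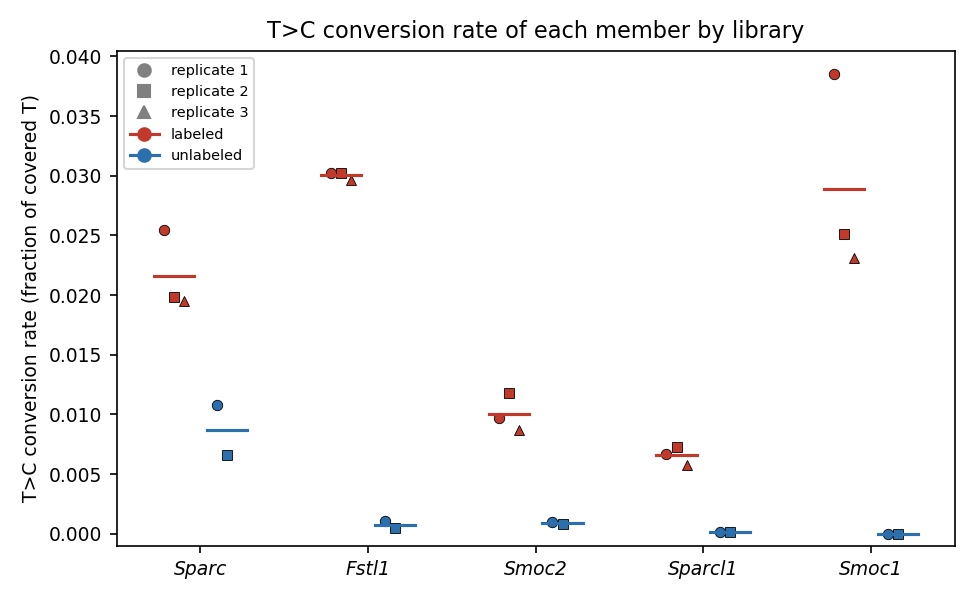
T>C conversion rate (fraction of covered T positions) of the 5 members read in every library, with 1 symbol per library and a line at each group mean. Fstl1 lies at 0.0297 to 0.0302 with S4U, Sparcl1 at 0.00578 to 0.00725, and Sparc is the only one of the 5 with unlabeled rates above 0.005.

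The high rate of *Sparc* without S4U was known when the members were chosen and is described without a test. It rested on 2265 conversions of 210291 covered T positions in unlabeled replicate 1 and 1583 of 239610 in replicate 2. The mean unlabeled rate of *Sparc*, 0.00869, ranked 3 among the 2107 deeply covered genes, of which 13 exceeded 0.005 and whose median was 0.000510. *Sparc* held 0.590% and 1.12% of the covered T positions in the unlabeled libraries and 5.48% and 10.9% of all their conversions. Without it, the rate over all genes fell from 0.00116 to 0.00110 in replicate 1 and from 0.000681 to 0.000614 in replicate 2. In the labeled libraries *Sparc* held 0.808% to 1.28% of the covered T positions and 0.593% to 0.716% of the conversions.

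**Figure D3:**
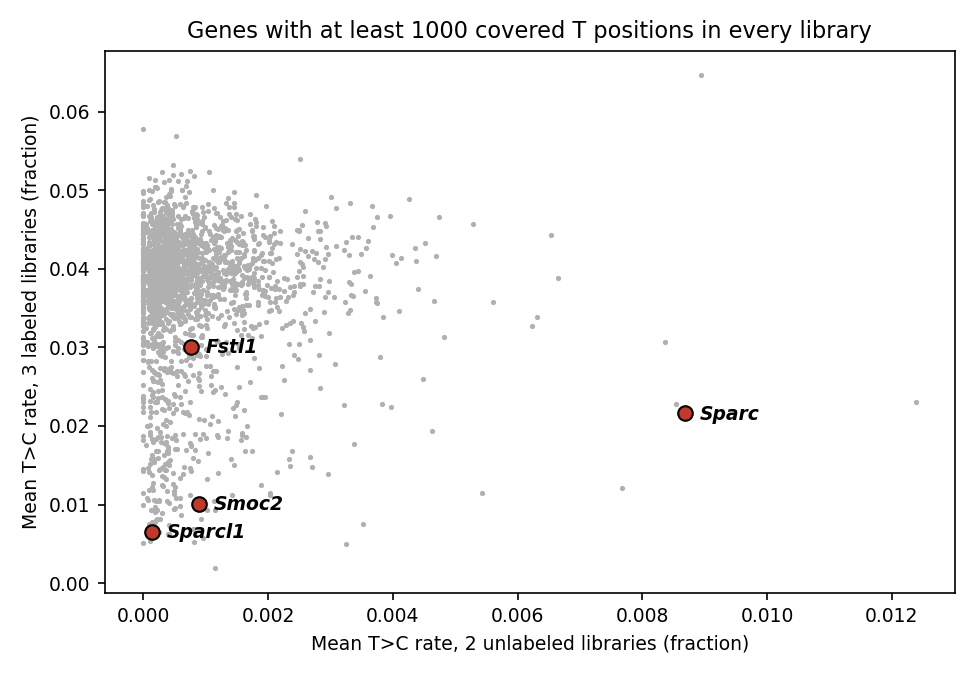
Mean T>C rate over the 3 labeled libraries (vertical axis) against the mean over the 2 unlabeled libraries (horizontal axis), both as fractions, for the 2107 genes that reached 1000 covered T positions in all 5 libraries. Sparc lies at 0.00869 on the horizontal axis, whereas Fstl1, Smoc2 and Sparcl1 lie below 0.001.

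*Sparc* had a larger share of reads with a conversion, and a higher mean number of conversions per converted read, in every labeled library than in either unlabeled one. Without S4U, 16.1% and 11.1% of its reads carried a conversion, in replicates 1 and 2, with 1.00 conversions per converted read in each, as for *Smoc2* and *Sparcl1* without S4U. This number divides one deposited column by another, and since it fell below 1 for *Fstl1* (0.893 and 0.848 without S4U) the columns are not counted alike, so that 1.00 does not show that each converted read held exactly 1 conversion. With S4U, 28.4%, 24.4% and 23.1% did, with 1.30, 1.33 and 1.33 conversions per converted read in replicates 1, 2 and 3. The tables hold sums per interval and not the position of each conversion, so whether the unlabeled conversions of *Sparc* fall on few positions was not tested. The labeled rate of *Sparc* was 0.00559 higher in replicate 1 than in replicate 2, and the unlabeled rate was 0.00416 higher. Subtracting the unlabeled mean left a rate of 0.0129 for *Sparc*, which was higher than 3.65% of the deeply covered genes treated alike, in place of 8.59% before subtraction. The same step left 0.0293 for *Fstl1*, 0.00916 for *Smoc2* and 0.00643 for *Sparcl1*, so the order of these 4 genes was kept.

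The members differed in the T positions that a read covers, on which the share of reads with a conversion depends. A read of *Sparc* covered 14.5 to 16.3 T positions in the labeled libraries and one of *Smoc1* 16.4 to 19.9, whereas *Sparcl1* reads covered 20.5 to 23.1, *Fstl1* reads 24.6 to 27.2 and *Smoc2* reads 26.2 to 26.7. The median over the deeply covered genes was 22.4. *Sparc* and *Smoc1*, with the fewest T covered per read, also had fewer T than *Sparcl1* in the 200 bases before the printed signal. *Smoc1* and *Fstl1*, with close T>C rates, had 38.7% ± 3.27 and 43.9% ± 1.90 of reads with a conversion (SD, n = 3). *Smoc2* had 16.3% ± 2.35 and *Sparcl1* 10.7% ± 1.81, against a median of 54.1% for the deeply covered genes.

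**Figure D4:**
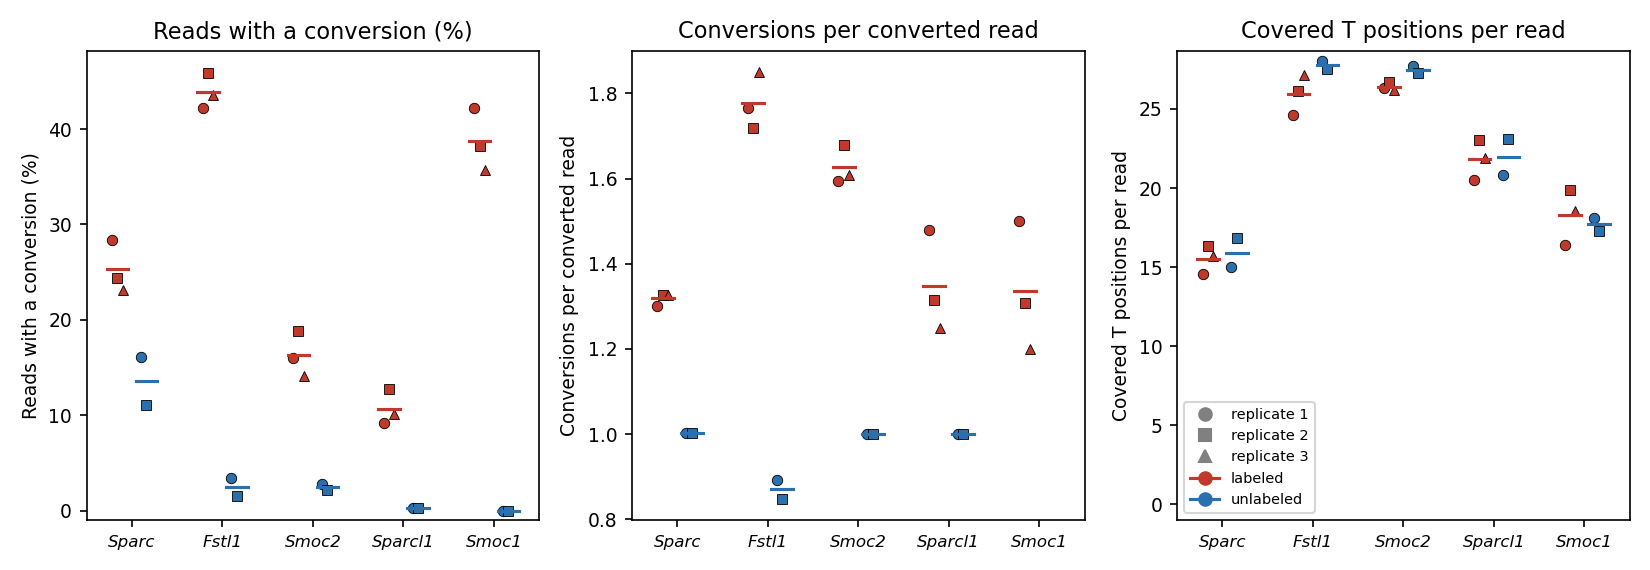
Share of reads with a T>C conversion (left), conversions per converted read (middle, axis not from 0) and covered T positions per read (right) for 5 members, with 1 symbol per library and a line at each group mean. Conversions per converted read are a ratio of deposited columns that are not counted alike. This ratio is 1.00 for Sparc without S4U, 1.30 to 1.33 for Sparc with S4U, and 0.893 and 0.848 for Fstl1 without S4U.

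Reads of labeled and unlabeled cells were compared to see whether S4U itself moved transcript levels. For none of the 5 members tested did the read count change at an adjusted p below 0.05 (edgeR quasi-likelihood fit over 9807 genes, Benjamini-Hochberg adjustment), where 0% of all genes were called in either direction. At an unadjusted p below 0.05, 2.84% of all genes were higher and 3.12% lower, and none of the members was among them in this fit of all 5 libraries. DESeq2 called 13 genes higher and 7 lower at an adjusted p below 0.05, none of them a member. The log2 fold change, labeled against unlabeled, was 0.61 (standard error 0.46) for *Fstl1*, 0.46 (0.39) for *Sparc* and 0.03 (0.53) for *Smoc1*. It was −0.28 (standard error 0.26) for *Smoc2* and −0.42 (0.34) for *Sparcl1*. Leaving out unlabeled replicate 1 or 2 moved the log2 fold change to 0.04 or 1.04 for *Sparc*, to 0.20 or 1.18 for *Fstl1*, to −0.80 or 0.07 for *Sparcl1* and to 0.79 or −0.43 for *Smoc1*. Without labeled replicate 1 the log2 fold change of *Fstl1* was 0.91 and did not pass the adjusted threshold (edgeR, adjusted p = 0.467). With the replicate number as a block, edgeR called 528 genes higher and 618 lower, none of them a member. In that fit the log2 fold change was 0.33 (standard error 0.15) for *Sparc*, 0.34 (0.15) for *Fstl1*, −0.35 (0.15) for *Smoc2* and −0.32 (0.16) for *Sparcl1*, with adjusted p from 0.117 to 0.184.

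**Figure D5:**
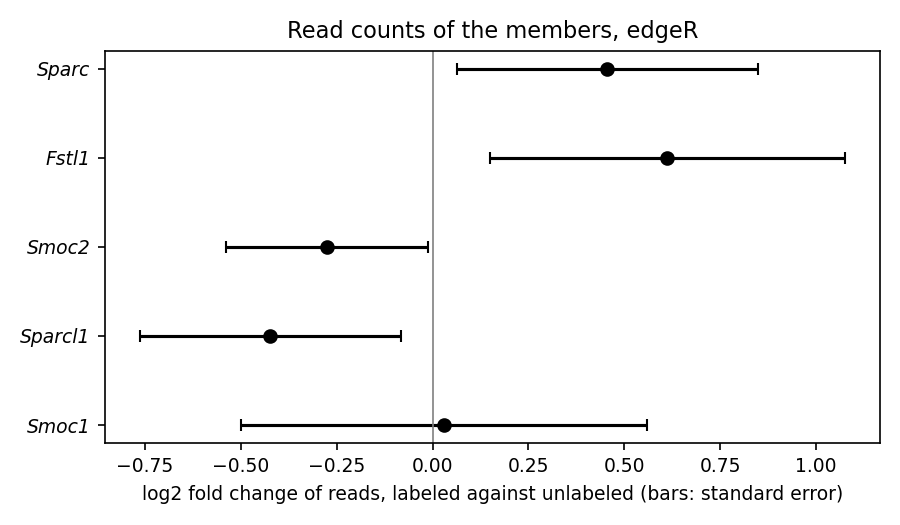
log2 fold change of read counts, labeled against unlabeled, for the 5 members tested, with bars of 1 standard error from edgeR. The values run from −0.42 for Sparcl1 to 0.61 for Fstl1, and none passed the adjusted threshold.

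Other genes of the family and its partners were taken from lists. Of 9 further genes with a SPARC-type or follistatin-type domain, *Spock1*, *Spock3*, *Fstl4* and *Fstl5* had 0 reads in all 5 libraries. The other 5 were read in every library, and 5 of 5 had a higher T>C rate with S4U, beside 94.6% of all intervals. *Fst*, the activin-binding follistatin, was labeled at 0.0457 ± 0.00235 (SD, n = 3), and *Fstl3*, which also binds activins, at 0.0445 ± 0.00588, both above *Fstl1* in every labeled library. For reads, 0 of 5 passed the adjusted threshold, with a median log2 fold change of 1.27 beside 0.02 over all genes tested. The level of *Fst* was 799, 377 and 316 CPM with and 253 and 121 CPM without S4U (log2 fold change 1.49, standard error 0.49, adjusted p = 0.725 from edgeR). That of *Fstl3* was 165, 289.5 and 247 CPM with and 56.4 and 95.4 CPM without S4U (log2 fold change 1.70, standard error 0.39, adjusted p = 0.542 from edgeR).

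Of 12 collagens and collagen-binding partners, 11 had a higher T>C rate with S4U, beside 94.6% of all intervals. *Stab1*, a scavenger receptor that takes up SPARC, did not pass (beta-binomial test, p = 0.261). It had only 21, 17 and 4 reads in the labeled and 33 and 12 in the unlabeled libraries, so its test rests on few reads. The 11 that were deeply covered had a median labeled rate of 0.0259. *Col4a1*, a basement membrane chain, was labeled at 0.0270 ± 0.000447 (SD, n = 3), *Col5a1* at 0.0268 ± 0.00176 and *Ddr2*, a collagen receptor that shares a binding motif with SPARC, at 0.0367 ± 0.00273. For reads, 0 of 12 passed, with a median log2 fold change of 0.25. Of 18 genes of BMP signaling and FSTL1 binding (ligands, receptors, Smads, Id targets, *Dip2a*, *Tlr4* and *Cd14*), 18 had a higher T>C rate, beside the same 94.6%. The 10 that were deeply covered had a median rate of 0.0385, close to the 0.0388 of all deeply covered genes. *Bmp4*, a ligand, stood at 229 ± 23.7 CPM and 0.0363 ± 0.00231 (SD, n = 3). *Id3*, a BMP target, stood at 1495 ± 79.1 CPM and 0.0365 ± 0.00121. For reads, 0 of the 16 tested passed, with a median log2 fold change of 0.02.

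The genes with the most similar T>C rates were found by the Euclidean distance over the 5 libraries. They say nothing of shared function. Nearest to *Sparc* were *Gm15501* (distance 0.00734), *Ndufa13* (0.00839) and *Lgals1* (0.00842), where the median distance to all deeply covered genes was 0.0329. Nearest to *Fstl1* were *Dnajb11* (0.000782), *Dag1* (0.00105) and *Pcdhga9* (0.00136). *Smoc2* lay nearest to *Dpep1* (0.00125), *Dpt* (0.00139) and *Npc2* (0.00167), and *Sparcl1* to *Grn* (0.00147), *Efemp1* (0.00178) and *Col14a1* (0.00182). The nearest gene to *Sparc* was thus farther away than all 3 genes named for each of *Fstl1*, *Smoc2* and *Sparcl1*, and the unlabeled rate of *Gm15501* was 0.00854.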

How the data were processed

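SLAMseq libraries of CF (3 labeled, 2 unlabeled) were grouped by the submitters' labels. The authors moved UMI into read headers with umi-tools, used SLAM-DUNK 0.4.3 on the mm39 genome, deduplicated by UMI and counted on 3′ UTR intervals. The authors deposited unnormalized counts of reads, reads with a conversion, covered T positions and conversions, the conversion rate as a fraction (conversions per covered T) and CPM (reads scaled by a single number of reads per library).

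Repeated rows were used once, which left 40428 intervals. The T content of 40380 of 40380 intervals on reference chromosomes matched GRCm39. Annotation came from GENCODE. The T>C rate was tested by a likelihood-ratio test of beta-binomial fits that share 1 overdispersion (two-sided, chi-square with 1 degree of freedom), wherever all 5 libraries had 1 or more covered T. Read counts were tested with edgeR 4.0.16 (quasi-likelihood, TMM, filterByExpr, Benjamini-Hochberg adjustment). limma 3.58.1 (log odds, pseudocount 0.5) and DESeq2 1.42.0 were alternatives, as were other coverage minimums, filters and interval choices, the replicate block and each library left out. Software was Python 3.11.15 (numba 0.67.0, pandas 2.3.3, numpy 2.4.6, matplotlib 3.10.9, scipy 1.17.1) and R 4.3.3. The tests were tried on simulated data.

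Depth sets the precision: a count of 0 allows 3 counts, which covers counting error only. Within a group, the spread between libraries exceeded sampling noise (chi-square over its degrees of freedom 2.04 to 16.6), so none was counted as a copy.

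The members and lists were chosen with earlier results of these data known. The genes named were the members, the lists of family, collagen and BMP genes and cell type markers, and the 3 genes nearest in T>C rate to each member that reached 1000 covered T positions in all 5 libraries.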

Additional observations from a re-analysis of the deposited data

How the results depend on the processing

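For the members, the T>C call of all 5 held with Benjamini-Hochberg adjustment, in limma without a block and with each library left out. The p-values over the fits that left out a library ran from 0.00101 to 0.00560 for *Sparc*, 4.65e-05 to 0.000116 for *Sparcl1*, 0.000322 to 0.000951 for *Smoc1*, 2.13e-05 to 8.87e-05 for *Smoc2* and 8.39e-09 to 2.95e-06 for *Fstl1*. Where 1000 covered T positions were required in all 5 libraries, *Smoc1* was no longer tested and 4 members and 3154 intervals were higher. With 1 interval per gene 10641 intervals were higher. Both counts fell because fewer intervals were tested.

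Both groups have libraries numbered 1 and 2. The paper counts fewer CF preparations for SLAMseq than there are libraries, so libraries of both groups may share a preparation. No source used here says that those of the same number do. Over genes, deviations of log2 CPM from the group mean had a correlation of 0.784 for number 1 and 0.638 for number 2, and of 0.482 between labeled replicate 3 and unlabeled replicate 2, which share no number. With 2 unlabeled libraries the deviations mirror each other, so a positive value with either of them is given by construction, and these values do not show that a number is shared. With the replicate block in limma, 4 members and 18435 of 19240 intervals were higher, and *Sparc* was not called (adjusted p = 0.0736, log2 odds difference 1.43). With the replicate block in edgeR 528 genes were higher and 618 lower, none of them a member. Both block fits left 1 residual degree of freedom. They took the difference from numbers 1 and 2 only, since labeled replicate 3 has no unlabeled library of its number. DESeq2 called 13 higher and 7 lower, none a member. For both counts, the cause was not tested. All other edgeR settings gave 0 calls. Over 10 alternative fits, which gave 50 fold changes of members, no member was called, with adjusted p from 0.117 to 1.00, and 3 changed sign, 2 of *Smoc1* and 1 of *Sparcl1*. The log2 fold changes ran from 0.04 to 1.04 for *Sparc*, 0.20 to 1.18 for *Fstl1*, −0.39 to −0.11 for *Smoc2*, −0.80 to 0.07 for *Sparcl1* and −0.56 to 0.79 for *Smoc1*.

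Subtracting the unlabeled mean moved the T>C rate of *Sparc* to 0.0129 and that of *Fstl1* to 0.0293. Leaving out a labeled library gave 0.0197 to 0.0227 for *Sparc* and 0.0241 to 0.0318 for *Smoc1*. In deposited CPM the mean labeled level was 1091 for *Sparc*, 247 for *Fstl1*, 26.2 for *Smoc2*, 15.3 for *Sparcl1* and 4.17 for *Smoc1*, on another scale by construction. Without labeled replicate 1 the level of *Smoc1* was 28.1 CPM and that of *Spock2* was 0. No member has intervals that do not overlap, so sums over intervals gave no further value. Depth limits *Smoc1* and *Spock2* most.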
